A study of Homo sapiens with 16 samples.

Results

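TSC22D3, FKBP5, DUSP1, ZBTB16, DEPP1, KLF9, KLF15, SGK1 and RIPOR2, which are targets of the glucocorticoid receptor or of FOXO factors, were followed together with NR3C1, the gene of the receptor itself, in liver-like cells given fatty acids, formoterol or both. These 10 genes were selected from known function with earlier results of the same data in view, so their own values are given as a description and carry no test. They are 10 of the 58735 genes in the table and 10 of the 18121 that entered the fit, and each of the 10 was measured in all 16 libraries.

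The glucocorticoid receptor is a transcription factor that waits in the cytoplasm with chaperones, enters the nucleus when it binds a steroid, and switches on genes that damp inflammation and drive glucose production in the liver. FOXO factors are transcription factors of fasting: insulin signalling through AKT keeps them out of the nucleus, and in the liver they raise genes of glucose output. Several genes, among them those of gluconeogenesis, answer to both, and some also answer to cAMP, the second messenger that beta-adrenergic agonists such as formoterol raise.

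The cells were differentiated HepaRG, a human liver line that forms hepatocyte-like and cholangiocyte-like cells. The study had 4 groups of 4 libraries each, treated for 3 days. The combination group received 30 nM formoterol with 0.25 mM palmitic acid and 0.5 mM oleic acid, the fatty acid group the same acids alone, the formoterol group 30 nM formoterol alone, and the control group the vehicle, 1% BSA. BSA is given for the control group only, and whether the formoterol, fatty acid and combination groups also received it is not stated. All groups, the control included, were cultured with 2% DMSO, and the growth medium on every label holds serum, insulin and triamcinolone acetonide, a synthetic glucocorticoid. By the recipe volumes the steroid comes to a nominal 87.8 nM and insulin to 4.69 µg per mL. The receptor's ligand and the hormone that restrains FOXO factors were part of the medium of each group, and no group without them was studied. The libraries come from 1 human line. They are labelled independent replicates, without saying that they came from separate cultures, and p-values therefore measure only the spread between these samples.

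Libraries held 32471299 to 65673126 counts, and levels are given in CPM, counts scaled to the size of the library with TMM factors. Of the cell type markers, all 10 hepatocyte genes were tested, and their summed level was 27771 to 67115 CPM in the combination, 56871 to 64517 CPM with fatty acids, 67539 to 72680 CPM with formoterol and 29570 to 43375 CPM in control. Of 8 cholangiocyte markers 6 were tested, summing to 256 to 334 CPM in the combination, 317 to 370 CPM with fatty acids, 189.7 to 200.1 CPM with formoterol and 164 to 169 CPM in control. KRT19, SOX9 and CD24 were detected, with EPCAM listed at 0 counts and KRT7 under 1 CPM. Not every marker followed the sum of its list. SOX9 averaged 22.1 CPM in the combination, 29.2 CPM with fatty acids, 47.5 CPM with formoterol and 47.9 CPM in control. Of the hepatocyte markers, CYP3A4 averaged 663 CPM in the combination, 1917 CPM with fatty acids, 2374 CPM with formoterol and 2181 CPM in control. All 8 proliferation genes were tested and summed to 503 to 795 CPM in the combination, 331 to 444 CPM with fatty acids, 263 to 287 CPM with formoterol and 204 to 238 CPM in control. Of 8 stellate and fibroblast markers 7 were tested, at 607 to 765 CPM in the combination, 757 to 887 CPM with fatty acids, 469 to 512 CPM with formoterol and 639.6 to 803 CPM in control. COL1A2 was listed at 0 counts. Whether the zeros of EPCAM and COL1A2 reflect absent RNA or the making of the table is not known. Of 5 macrophage and leukocyte markers 2 were tested, at 12.3 to 25.7 CPM in the combination, 17.8 to 21.1 CPM with fatty acids, 25.3 to 31.6 CPM with formoterol and 21.2 to 26.7 CPM in control. PTPRC had 13 counts over the 16 libraries. Combination replicate 2 stood apart from its group. Its mean log2 level over the hepatocyte markers, relative to the controls, was −0.83 while its 3 sister libraries had 0.58 to 0.70, and it had the highest proliferation sum. These lists moved with the treatments, and their part in the results below was not tested. In bulk RNA, fewer cells of a type and less RNA per cell cannot be told apart.

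The promoters of 3 of the genes are shown because TSC22D3 and DEPP1 each hold the letters of a FOXO site, and DUSP1 holds those of a full cAMP response element (CRE). Each is a RefSeq window on GRCh38.p14, running from 250 bases before a transcription start to 50 after it, read 5′ to 3′ on the minus strand. Capitals mark the FOXO letters GTAAACA or their reverse complement TGTTTAC, the CRE letters TGACGTCA, and the CRE core TGACG or CGTCA, which the full CRE contains.
TSC22D3 (chrX:107717013-107717312): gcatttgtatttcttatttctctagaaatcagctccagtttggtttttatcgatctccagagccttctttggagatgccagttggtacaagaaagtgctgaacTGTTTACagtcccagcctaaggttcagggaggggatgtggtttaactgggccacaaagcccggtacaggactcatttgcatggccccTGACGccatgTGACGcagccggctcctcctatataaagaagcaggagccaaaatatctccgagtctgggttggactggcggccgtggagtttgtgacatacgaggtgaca
DUSP1 (chr5:172771146-172771445): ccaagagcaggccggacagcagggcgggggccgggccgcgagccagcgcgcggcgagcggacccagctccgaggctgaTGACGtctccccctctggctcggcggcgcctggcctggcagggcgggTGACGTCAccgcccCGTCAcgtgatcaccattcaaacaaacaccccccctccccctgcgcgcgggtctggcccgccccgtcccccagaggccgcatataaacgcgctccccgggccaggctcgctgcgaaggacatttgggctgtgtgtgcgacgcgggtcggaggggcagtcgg
DEPP1 (chr10:44978760-44979059): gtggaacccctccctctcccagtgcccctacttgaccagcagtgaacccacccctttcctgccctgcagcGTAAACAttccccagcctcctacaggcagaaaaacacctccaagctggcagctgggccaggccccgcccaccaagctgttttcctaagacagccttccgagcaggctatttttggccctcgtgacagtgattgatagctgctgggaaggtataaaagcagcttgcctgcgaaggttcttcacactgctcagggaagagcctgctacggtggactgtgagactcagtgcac

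Counted back from the start, the FOXO letters begin at −147 in TSC22D3 and at −180 in DEPP1, and the full CRE of DUSP1 begins at −125. Searched on either strand, the FOXO letters occur in 3.42% of all 35116 RefSeq windows of this length, the full CRE in 1.85% and the CRE core in 24.6%. The table held 25 windows for 9 of the 10 genes, 4 of them for TSC22D3 and 1 each for DUSP1 and DEPP1, and none for ZBTB16. Among the 7 NR3C1 windows, 1 also held the FOXO letters, and the CRE core occurred in windows of KLF15, NR3C1 and RIPOR2 as well. The letters AGAACA or TGTTCT, which are only a part of a full glucocorticoid response element, were found in 1 window each of FKBP5 and SGK1. They begin there at +1 and +6, after the start. Of all windows, 14.8% hold these letters. A match is a run of letters and not a site shown to be bound in these cells, and the binding of either factor was not measured.

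Most of the targets were lower after each treatment than in vehicle control, while the receptor gene was called in none of the comparisons. A gene is said to be called where its adjusted p in the edgeR fit over all 18121 genes was under 0.05. Against control, fatty acids had 1 of the 10 genes called higher and 7 lower, formoterol 1 higher and 6 lower, and the combination 1 higher and 6 lower. Formoterol added to fatty acids had 2 called higher and 2 lower than fatty acids alone, and the combination had 3 called higher and 3 lower than formoterol alone. The share of all tested genes that was called was 16.5% for fatty acids against control, 10.3% for formoterol against control, 2.8% for the combination against fatty acids, 18.4% for the combination against formoterol and 14.3% for the combination against control. Because the genes were chosen with these comparisons known, their counts are not read against those shares. The median log2 fold change of the 10 genes was −0.25 with fatty acids, −0.30 with formoterol and −0.22 with both, against 0.01, −0.00 and 0.00 over all genes tested. The comparisons against control share the same 4 control libraries.

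**Figure D1:**
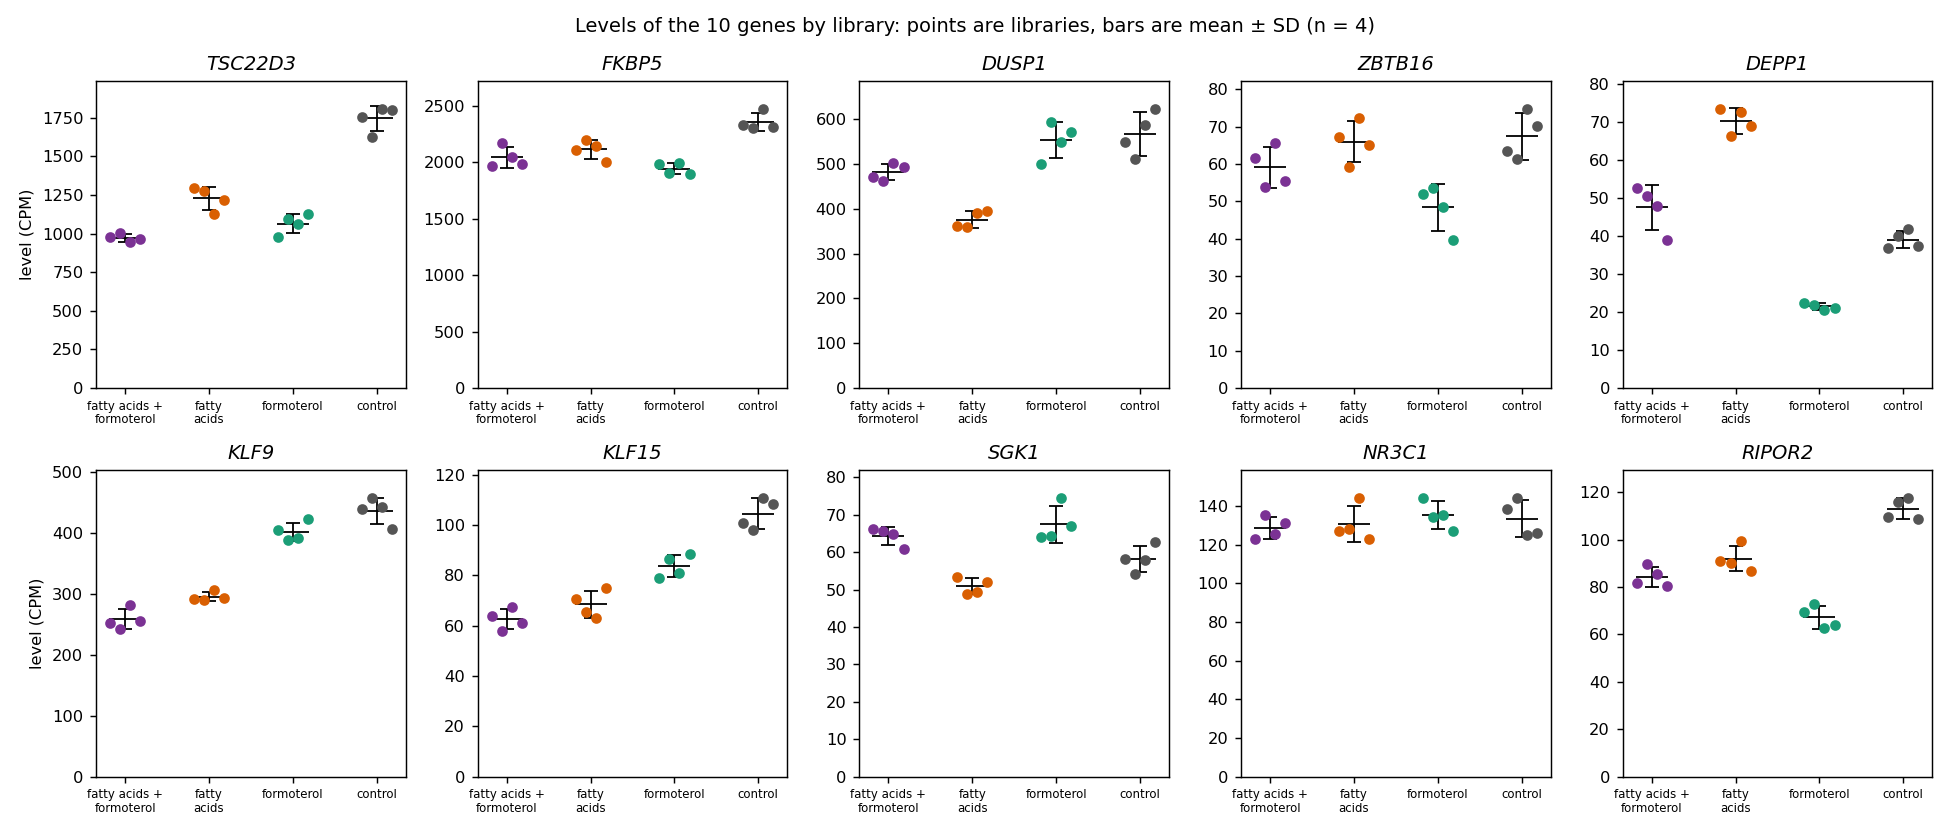
Level in CPM (linear axes from 0) of each of the 10 genes in every library, by group; points are libraries and bars are mean ± SD (n = 4). TSC22D3 and RIPOR2 lie lower in all 3 treated groups than in control, DEPP1 is highest with fatty acids and lowest with formoterol, and NR3C1 overlaps across the groups.

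Per kilobase of annotated gene, the most abundant of the 10 in control were TSC22D3 at 366 CPM per kb, DUSP1 at 281 and FKBP5 at 222. KLF9 followed at 84.4 CPM per kb and KLF15 at 36.7, while NR3C1, DEPP1, RIPOR2, ZBTB16 and SGK1 lay between 5.82 and 14.5. The same 3 genes led in the combination, at 204 CPM per kb for TSC22D3, 239 for DUSP1 and 192 for FKBP5. For TSC22D3, DEPP1 and RIPOR2 the length used, 4766, 2979 and 9536 bases, is that of all annotated exons together. SGK1 was divided by 9992 bases. Which transcripts the cells express was not measured, so the order between genes is approximate. Counts per library ran from 636, for DEPP1 in 1 library, to 112753, for FKBP5 in another.

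TSC22D3, also known as GILZ, encodes a leucine zipper protein through which glucocorticoids restrain NF-kB and AP-1, and its gene is a target of FOXO factors too. The combination libraries had 975, 1006, 943 and 961 CPM, the fatty acid libraries 1294, 1274, 1127 and 1214 CPM, the formoterol libraries 978, 1095, 1059.8 and 1125 CPM, and the control libraries 1753, 1627, 1807 and 1797 CPM. All 12 treated libraries lay below the lowest control library, and the combination lay below fatty acids without overlap but overlapped formoterol. Its log2 fold change was −0.51 ± 0.06 with fatty acids, −0.71 ± 0.06 with formoterol and −0.85 ± 0.06 with both, each against control. Added to fatty acids, formoterol gave a further −0.34 ± 0.06, while the combination against formoterol was not called (−0.13 ± 0.06). The order of the levels was control, fatty acids, formoterol and combination, and the ranges of the last 2 overlapped.

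DUSP1, a phosphatase that switches off the stress kinases of the MAP kinase family, is induced by glucocorticoids and by cAMP. The combination libraries had 472, 462, 502 and 493 CPM, the fatty acid libraries 361, 359, 390 and 395 CPM, the formoterol libraries 501, 595, 550 and 571 CPM, and the control libraries 549, 511, 586 and 623 CPM. Fatty acids held the 4 lowest values of the 16, the combination the next 4 but for 1 formoterol library that lay among them, and formoterol overlapped control. The log2 fold change was −0.59 ± 0.07 with fatty acids against control and −0.03 ± 0.07 with formoterol against control, the first called and the second not. With fatty acids present, formoterol raised the level by 0.36 ± 0.07 over fatty acids alone, which left the combination −0.24 ± 0.07 from control and −0.20 ± 0.07 from formoterol. The call against control was lost without control replicate 3 (−0.22), control replicate 4 (−0.19) or combination replicate 1 (−0.22). The call against formoterol was lost without any of formoterol replicates 2, 3 and 4 or combination replicates 1, 2 and 4 (−0.21 to −0.17).

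FKBP5 encodes a co-chaperone that lowers the affinity of the receptor for its hormone and is a standard readout of receptor activity. It averaged 2045 ± 93.2 CPM in the combination, 2116 ± 81.9 CPM with fatty acids, 1946 ± 51.1 CPM with formoterol and 2359 ± 78.5 CPM in control (SD, n = 4 each). Treated libraries ran from 1899 to 2200 CPM and control libraries from 2310 to 2475 CPM, without overlap. The changes against control were small, −0.28 ± 0.05 with formoterol, −0.21 ± 0.05 with both and −0.16 ± 0.05 with fatty acids, and all 3 were called. The fatty acid call was lost when control replicate 1, 3 or 4 or fatty acid replicate 1, 3 or 4 was left out, with values from −0.17 to −0.13. The combination differed from neither single treatment by a called amount (−0.05 ± 0.05 against fatty acids and 0.07 ± 0.05 against formoterol).

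KLF9 and KLF15 are zinc finger transcription factors of the Krüppel-like family that glucocorticoids induce; in mouse liver KLF15 raises genes of amino acid breakdown and gluconeogenesis. KLF9 had 253, 243, 281 and 255 CPM in the combination libraries, 291, 291, 307 and 294 CPM with fatty acids, 405, 389, 392 and 422 CPM with formoterol, and 439, 458, 442 and 407 CPM in control. The 8 libraries with fatty acids lay below the 8 without. Its log2 fold change was −0.56 ± 0.06 with fatty acids and −0.76 ± 0.06 with both, against −0.12 ± 0.06 with formoterol, which was not called. The combination libraries lay below the fatty acid libraries without overlap (−0.20 ± 0.06), yet this was not called, and it was called with DESeq2 (−0.19) and without combination replicate 3 (−0.24). KLF15 had 63.8, 58.0, 67.2 and 61.0 CPM in the combination, 70.4, 65.6, 62.9 and 75.1 CPM with fatty acids, 78.8, 86.4, 81.1 and 88.4 CPM with formoterol and 101, 97.9, 111 and 108 CPM in control. Control lay above all treated libraries and formoterol above the libraries with fatty acids. Its change against control was −0.61 ± 0.07 with fatty acids, −0.32 ± 0.07 with formoterol and −0.74 ± 0.07 with both. The combination was −0.42 ± 0.07 from formoterol and overlapped fatty acids (−0.13 ± 0.07, not called).

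ZBTB16, also known as PLZF, is a zinc finger transcriptional repressor with a strong response to glucocorticoids in several human tissues. It averaged 59.1 ± 5.42 CPM in the combination, 66.0 ± 5.44 CPM with fatty acids, 48.3 ± 6.27 CPM with formoterol and 67.4 ± 6.19 CPM in control (SD, n = 4 each). The formoterol libraries, from 39.5 to 53.5 CPM, lay below the libraries of the other 3 groups, whose ranges overlapped one another. The difference from control was −0.48 ± 0.09 with formoterol, −0.03 ± 0.09 with fatty acids and −0.19 ± 0.09 with both, and the first was called. The combination lay 0.29 ± 0.09 above formoterol, a call that was lost without formoterol replicate 3 or 4 or combination replicate 1 or 3 (0.20 to 0.29).

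DEPP1 is a FOXO target that rises in fasting and takes part in autophagy, and it moved in opposite directions with the 2 treatments. The combination libraries had 52.5, 50.5, 47.8 and 38.9 CPM, the fatty acid libraries 73.3, 66.2, 72.5 and 68.7 CPM, the formoterol libraries 22.4, 21.8, 20.5 and 21.0 CPM, and the control libraries 36.9, 39.9, 41.7 and 37.4 CPM. Fatty acids stood above and formoterol below all other groups, and the combination overlapped control through its replicate 4. Against control the log2 fold change was 0.85 ± 0.08 with fatty acids (1.80-fold) and −0.86 ± 0.08 with formoterol (1.82-fold lower). Formoterol added to fatty acids gave −0.57 ± 0.08 against fatty acids alone, and fatty acids added to formoterol gave 1.15 ± 0.08 against formoterol alone (2.21-fold). The combination lay 0.28 ± 0.08 above control, a call that was lost without control replicate 1 (0.26), control replicate 4 (0.26) or combination replicate 1 (0.23).

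In the annotation 695 of the 2979 exon bases of DEPP1, or 23.3%, lie under exons of RASSF4 on the opposite strand, and RASSF4 had 4.53 times as many counts. The sources used here do not say whether the counting used strand, so reads of the 2 genes may be mixed in that stretch and the level of DEPP1 is uncertain. RASSF4, named here after its values were seen, averaged 174 ± 25.4 CPM in the combination, 191 ± 22.7 CPM with fatty acids, 170.0 ± 7.26 CPM with formoterol and 261 ± 20.2 CPM in control (SD, n = 4 each). It was lower than control with fatty acids (log2 −0.45 ± 0.09, edgeR adjusted p = 0.00163), where DEPP1 was higher, and lower with formoterol (−0.62 ± 0.09, edgeR adjusted p = 0.000233), where DEPP1 was lower too. For TSC22D3 and RIPOR2, exons of other genes covered 0.692% to 1.98% of the exon bases, and those genes had 0 to 4.89e-05 counts for each count of the gene they overlap.

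RIPOR2 encodes an inhibitor of the small GTPase RhoA, and in human T cells it is a FOXO1 target. It had 81.5, 89.8, 85.4 and 80.5 CPM in the combination libraries, 91.1, 90.05, 99.2 and 86.8 CPM with fatty acids, 69.5, 72.7, 62.6 and 63.9 CPM with formoterol and 109.6, 116, 118 and 109 CPM in control. Control stood above and formoterol below all other libraries, and the combination overlapped fatty acids. The log2 fold change against control was −0.30 ± 0.06 with fatty acids, −0.75 ± 0.06 with formoterol and −0.42 ± 0.06 with both. The combination was thus 0.33 ± 0.06 above formoterol and −0.12 ± 0.06 from fatty acids, the second of which was not called.

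SGK1 is a kinase induced by serum and glucocorticoids that, like AKT, can phosphorylate FOXO3. It averaged 64.4 ± 2.37 CPM in the combination, 50.9 ± 2.14 CPM with fatty acids, 67.5 ± 4.92 CPM with formoterol and 58.2 ± 3.52 CPM in control (SD, n = 4 each). The fatty acid libraries, from 48.9 to 53.3 CPM, lay below all others, and the formoterol libraries, from 64.0 to 74.6 CPM, lay above control but overlapped the combination. Formoterol added to fatty acids gave 0.34 ± 0.06 against fatty acids alone. The smaller differences from control were −0.19 ± 0.07 with fatty acids and 0.21 ± 0.06 with formoterol, both called, and 0.15 ± 0.06 with both, not called. The fatty acid call was lost in 10 of the 16 fits that left out 1 library. These were the fits without control replicate 1, 3 or 4, formoterol replicate 2 or 4, fatty acid replicate 2, 3 or 4, or combination replicate 1 or 3 (−0.20 to −0.16). The formoterol call was lost without control replicate 1, 2 or 3, formoterol replicate 3 or 4, or fatty acid replicate 1 (0.16 to 0.22).

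NR3C1, the receptor gene, averaged 129 ± 5.69 CPM in the combination, 131 ± 9.32 CPM with fatty acids, 135 ± 7.01 CPM with formoterol and 133 ± 9.57 CPM in control (SD, n = 4 each). The ranges of the 4 groups overlapped, between 123 and 144 CPM. Its log2 differences lay between −0.07 ± 0.06, for the combination against formoterol, and 0.02 ± 0.06, for formoterol against control, and none was called. These values concern its RNA; protein and nuclear entry were not measured.

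**Figure D2:**
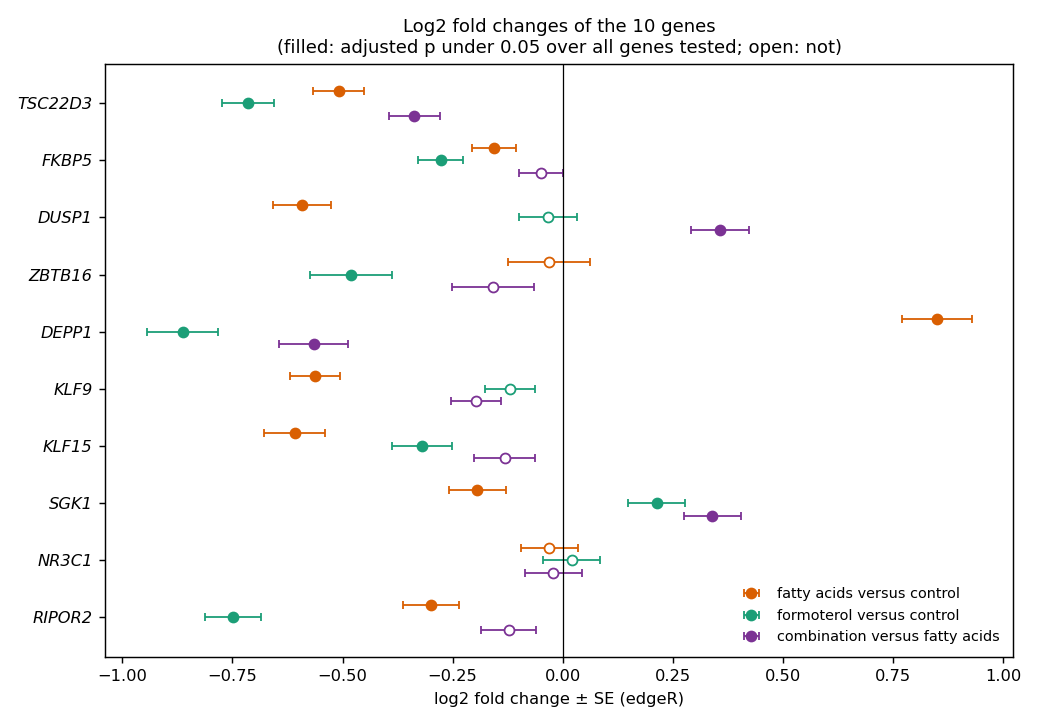
Log2 fold change ± SE (edgeR) of the 10 genes for fatty acids against control, formoterol against control and the combination against fatty acids; filled points are called and open points are not. DEPP1 lies at 0.85 with fatty acids and −0.86 with formoterol, DUSP1 at −0.59 with fatty acids and 0.36 when formoterol was added to them, and NR3C1 near 0 in all 3.

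Some calls of the 10 genes ended under another setting, and some were gained. With scaling by total counts, KLF9 was called with formoterol against control (−0.25) and FKBP5 in the combination against formoterol (0.21). With scaling by total counts, calls were lost for FKBP5 with fatty acids (−0.18) and with both (−0.20) against control, for DUSP1 in the combination against formoterol (−0.07), and for SGK1 with fatty acids (−0.21) and with formoterol (0.08). With no filter on low counts, FKBP5 (−0.16) and SGK1 (−0.20) lost the fatty acid call and SGK1 the formoterol call (0.23). With only the 2 groups compared in the fit, calls were lost for FKBP5 (−0.20), DUSP1 (−0.23) and DEPP1 (0.28) in the combination against control, for DUSP1 (−0.19) and ZBTB16 (0.30) in the combination against formoterol, and for SGK1 with fatty acids (−0.20) and formoterol (0.21).

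Combination replicate 2, which stood apart on the cell type markers, was also left out. FKBP5 averaged 2002 ± 43.5 CPM in the remaining 3 combination libraries, TSC22D3 960.0 ± 16.2 CPM, DUSP1 489 ± 15.5 CPM, DEPP1 46.4 ± 6.93 CPM and RIPOR2 82.4 ± 2.57 CPM (SD, n = 3). Without combination replicate 2, 7 of the 10 genes were called in the combination against control and 4 in the combination against fatty acids, the same counts as with it. In the combination against formoterol 5 were called against 6 with it, DUSP1 being the one lost. With all 16 libraries, the shares of all genes called in these comparisons were 14.3%, 2.8% and 18.4%, in that order.

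For 6 of the 10 genes, RIPOR2, TSC22D3, DUSP1, ZBTB16, FKBP5 and KLF15, the combination lay closer to control than the sum of the 2 separate log2 changes. The interaction, which is the effect of formoterol with fatty acids minus its effect without them, was called above 0 for 3 genes and below 0 for none, where 5.5% of all genes tested were called. It was 0.63 ± 0.09 for RIPOR2, for which the separate changes sum to −1.05 and both together gave −0.42. It was 0.38 ± 0.08 for TSC22D3, with a sum of −1.22 and −0.85 for both together, and 0.39 ± 0.09 for DUSP1, with a sum of −0.63 and −0.24 for both together. DEPP1 (0.30 ± 0.11), ZBTB16 (0.32 ± 0.13), FKBP5 (0.23 ± 0.07), KLF15 (0.19 ± 0.10) and SGK1 (0.13 ± 0.09) had positive values that were not called. FKBP5 was called with DESeq2 (0.23) and with the 1 CPM filter (0.25), and DEPP1 without combination replicate 4 (0.38). KLF9 (−0.08 ± 0.08) and NR3C1 (−0.04 ± 0.09) lay near 0. The median over the 10 genes was 0.26, against 0.01 over all genes tested, and with scaling by total counts, which moves the median of all genes by 0.16, 7 of the 10 were called. Under that scaling 74.6% of the genes called for the interaction were above 0, against 38.5% with TMM factors.

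**Figure D3:**
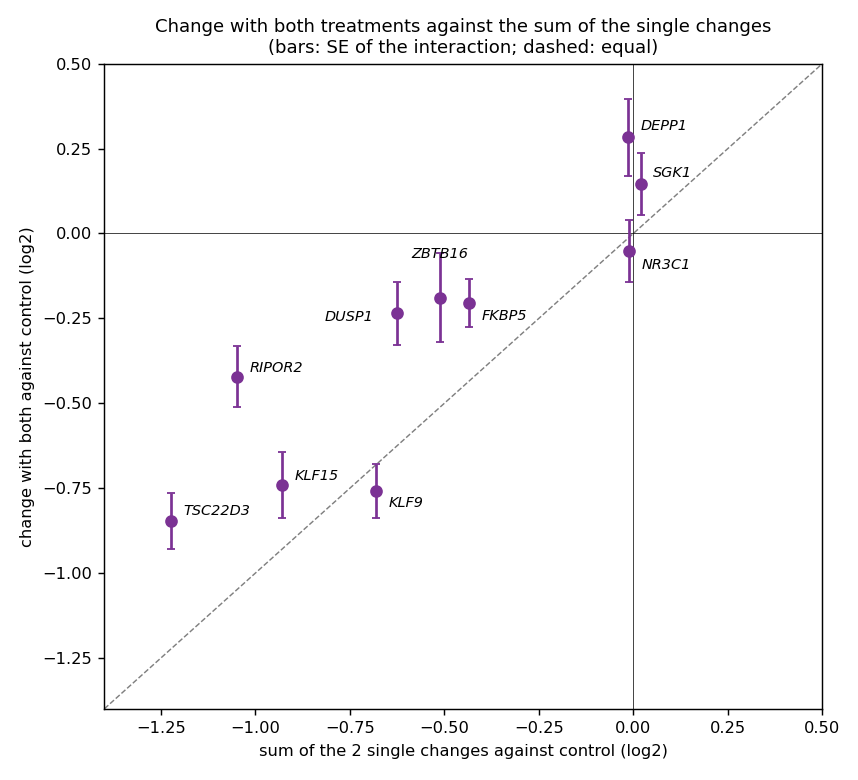
Log2 change of each gene with both treatments against control (vertical) against the sum of its changes with fatty acids and with formoterol (horizontal); bars are the SE of the interaction and the dashed line marks equality. RIPOR2, TSC22D3 and DUSP1 lie above the line by 0.63, 0.38 and 0.39, and KLF9 and NR3C1 lie close to it; both axes use the same control libraries.

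Other genes of the same pathways were taken from 6 lists of known function, with 98 of their 103 genes tested. Like the 10 genes, the lists were chosen with earlier results of these data known, so their counts and medians are descriptions. The called share of all genes was 16.5% with fatty acids, 10.3% with formoterol and 2.8% for formoterol added to fatty acids. Of 24 other glucocorticoid receptor targets, fatty acids had 3 called higher and 7 lower than control (median log2 fold change −0.05, against 0.01 for all genes). ANGPTL4, a secreted inhibitor of lipoprotein lipase that fatty acids also induce through PPAR receptors, rose by 2.76 ± 0.14 (edgeR adjusted p = 1.14e-11), at 38.5 ± 2.37 CPM with fatty acids and 5.67 ± 0.97 CPM in control (SD, n = 4 each). LPIN1, a phosphatidate phosphatase of triglyceride synthesis, fell by 0.63 ± 0.05 (edgeR adjusted p = 5.86e-08). PER1, a clock gene, fell by 0.35 ± 0.10 (edgeR adjusted p = 0.0151) while TAT, tyrosine aminotransferase, fell by 1.07 ± 0.32 (edgeR adjusted p = 0.0226). With formoterol 3 were called higher and 7 lower (median −0.14, against −0.00). TAT rose there by 1.28 ± 0.30 (edgeR adjusted p = 0.00902), at 22.7 ± 2.72 CPM with formoterol and 9.37 ± 3.72 CPM in control (SD, n = 4 each). There LPIN1 (−0.39 ± 0.05), GLUL, glutamine synthetase (−0.30 ± 0.05), and PER1 (−0.34 ± 0.10) were lower. With both treatments 3 of the 24 were called higher and 4 lower than control, where 14.3% of all genes were called. TAT was among the lower ones (−1.39 ± 0.32, edgeR adjusted p = 0.00452), with an interaction of −1.60 ± 0.44 (edgeR adjusted p = 0.0375). Its levels were low and overlapped, at 1.09 to 5.87 CPM in the combination and 4.62 to 13.1 CPM in control. Fits that left out 1 library are not given for these values of TAT, and the part of combination replicate 2 was not tested. Added to fatty acids, formoterol had 1 called higher, RGS2, a brake on G protein signalling (1.44 ± 0.16, edgeR adjusted p = 8.19e-06), and 2 lower, among them GLUL (−0.24 ± 0.05; not called with only the 2 groups compared, −0.23). The count with fatty acids was 5 without control replicate 3 and 6 without control replicate 4 or fatty acid replicate 2, and the count for formoterol added to fatty acids was 5 without combination replicate 2. TAT lost its fatty acid call without control replicate 2 or 4 or fatty acid replicate 2 or 4 (−1.04 to −0.86). PER1 lost its fatty acid call without control replicate 3 (−0.27) and its formoterol call without control replicate 3 or 4 or formoterol replicate 1, 3 or 4 (−0.34 to −0.26).

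Of 22 other FOXO targets, fatty acids had 8 called higher and 4 lower than control (median 0.15), formoterol 3 higher and 5 lower (median −0.04), and formoterol added to fatty acids 0 higher and 7 lower than fatty acids alone (median −0.21, against 0.00 for all genes). In these comparisons 16.5%, 10.3% and 2.8% of all genes tested were called. TXNIP, an arrestin-like protein that lowers glucose uptake and binds thioredoxin, had 305 ± 30.2 CPM in the combination, 500.3 ± 27.6 CPM with fatty acids, 66.7 ± 2.63 CPM with formoterol and 113 ± 6.89 CPM in control (SD, n = 4 each). It rose by 2.15 ± 0.07 with fatty acids (edgeR adjusted p = 2.10e-14), fell by 0.76 ± 0.07 with formoterol (edgeR adjusted p = 7.94e-07) and fell by 0.71 ± 0.07 when formoterol was added to fatty acids (edgeR adjusted p = 1.28e-06), the directions that DEPP1 also took. CITED2, a transcriptional co-regulator, rose by 1.00 ± 0.05 with fatty acids (edgeR adjusted p = 3.11e-11) and fell by 0.34 ± 0.05 when formoterol was added (edgeR adjusted p = 0.000697). SELENOP, the selenium carrier secreted by the liver, rose by 0.83 ± 0.07 with fatty acids (edgeR adjusted p = 5.79e-08) and fell by 0.61 ± 0.07 when formoterol was added (edgeR adjusted p = 1.76e-05). FBXO32, a ubiquitin ligase of muscle wasting, fell by 0.58 ± 0.06 with formoterol (edgeR adjusted p = 2.25e-06) and by 0.42 ± 0.06 when formoterol was added to fatty acids (edgeR adjusted p = 0.000146). With fatty acids it was 1 of the 4 called lower than control (−0.18 ± 0.06, edgeR adjusted p = 0.0346). That call was lost without control replicate 1, 2 or 3 or fatty acid replicate 2 or 4 (−0.18 to −0.17). It was also lost with no filter (−0.19). Without formoterol replicate 4 the formoterol count was 5 in place of 8.

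Of the 5 targets shared by both kinds of factor, fatty acids had 4 called higher and none lower than control, and formoterol 2 higher and 1 lower. The shares of all genes called were 16.5% and 10.3%. PDK4 is the kinase that shuts pyruvate out of oxidation in fasting. It had 2628 ± 294 CPM in the combination, 2480 ± 94.6 CPM with fatty acids, 776 ± 15.1 CPM with formoterol and 739 ± 39.1 CPM in control (SD, n = 4 each). This was a rise of 1.75 ± 0.07 with fatty acids (edgeR adjusted p = 8.65e-14). PCK1, which commits carbon to gluconeogenesis, rose by 0.86 ± 0.17 with fatty acids (edgeR adjusted p = 0.00109) and by 0.75 ± 0.17 with formoterol (edgeR adjusted p = 0.00656). G6PC, the last enzyme of that pathway, rose by 0.85 ± 0.25 with fatty acids (edgeR adjusted p = 0.0219) and by 1.24 ± 0.25 with formoterol (edgeR adjusted p = 0.00294). With both treatments 3 of the 5 were called higher and 0 lower than control, where 14.3% of all genes were called. G6PC was not called there (0.30 ± 0.25), and its interaction was −1.78 ± 0.35 (edgeR adjusted p = 0.00590). Its level ran from 21.5 to 66.7 CPM in the combination (54.1 ± 21.7 CPM) and from 25.4 to 57.2 CPM in control. Fits that left out 1 library are not given for these values of G6PC. The part of combination replicate 2, which stood apart on the hepatocyte markers, was not tested. IGFBP1, a secreted binder of insulin-like growth factors, rose by 0.75 ± 0.17 with fatty acids (edgeR adjusted p = 0.00293), and IRS2, an adaptor of the insulin receptor, fell by 0.33 ± 0.09 with formoterol (edgeR adjusted p = 0.0167). Added to fatty acids, formoterol had 0 of the 5 called by edgeR, 1 of them with an unadjusted p under 0.05, and DESeq2 also called 0. G6PC lost its fatty acid call without control replicate 1 or 3 or fatty acid replicate 3 or 4 (0.66 to 0.84), and IRS2 its formoterol call without control replicate 3 or formoterol replicate 3 (−0.30 in each). The hepatocyte marker sum, given above, was also higher with fatty acids and with formoterol than in control, and its part in these rises was not tested.

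Upstream of the targets, of 15 partners of the receptor, fatty acids had 3 called higher and 1 lower than control, where 16.5% of all genes were called, and formoterol 2 higher and 1 lower, where 10.3% were. Added to fatty acids, formoterol had 0 of the 15 called by edgeR, with 4 at an unadjusted p under 0.05, and 2 called by DESeq2. PTGES3, the p23 co-chaperone of the receptor, rose by 0.32 ± 0.06 with fatty acids (edgeR adjusted p = 0.00115), and ABCB1, a pump that exports steroids and drugs, rose by 0.71 ± 0.12 with formoterol (edgeR adjusted p = 0.000527). NR3C2 is the mineralocorticoid receptor, which binds the same natural hormone. It averaged 15.4 ± 3.26 CPM in the combination, 15.1 ± 1.62 CPM with fatty acids, 17.8 ± 1.28 CPM with formoterol and 19.6 ± 2.39 CPM in control (SD, n = 4 each). Its difference with fatty acids, −0.38 ± 0.13, was not called (edgeR adjusted p = 0.0517), though it was under 9 of the alternatives run, among them DESeq2 (−0.39). Of 15 FOXO factors and insulin signalling genes, fatty acids had 2 called higher and 1 lower, formoterol 0 higher and 2 lower, and formoterol added to fatty acids 0 higher and 2 lower. The shares of all genes called were 16.5%, 10.3% and 2.8%. FOXO1 had 140.1 ± 12.7 CPM in the combination, 133 ± 8.46 CPM with fatty acids, 146 ± 2.21 CPM with formoterol and 173 ± 6.77 CPM in control (SD, n = 4 each). This was a fall of 0.38 ± 0.06 with fatty acids (edgeR adjusted p = 0.000255) and of 0.25 ± 0.06 with formoterol (edgeR adjusted p = 0.0153). FOXO3 had 158 ± 9.28 CPM in the combination, 199 ± 1.98 CPM with fatty acids, 135 ± 8.47 CPM with formoterol and 173 ± 8.16 CPM in control (SD, n = 4 each). It rose by 0.20 ± 0.06 with fatty acids (edgeR adjusted p = 0.0224), fell by 0.36 ± 0.06 with formoterol (edgeR adjusted p = 0.000536) and fell by 0.33 ± 0.06 when formoterol was added to fatty acids (edgeR adjusted p = 0.00225). PIK3R1, the regulatory subunit of phosphoinositide 3-kinase, fell by 0.38 ± 0.07 in that last comparison (edgeR adjusted p = 0.00143), and PIK3CA, its catalytic subunit, rose by 0.27 ± 0.07 with fatty acids (edgeR adjusted p = 0.00617). The FOXO3 call with fatty acids was lost without control replicate 1 or 4 or fatty acid replicate 1 or 3 (0.17 to 0.19), with total counts (0.18) and with no filter (0.20). The formoterol call of FOXO1 was lost without control replicate 3 (−0.23). The partner count with fatty acids was 2 without control replicate 4, fatty acid replicate 1 or fatty acid replicate 3, and with formoterol 1 without control replicate 3. The count of FOXO and insulin signalling genes with fatty acids was 5 without control replicate 2 or combination replicate 2, and with formoterol 1 without control replicate 3.

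**Figure D4:**
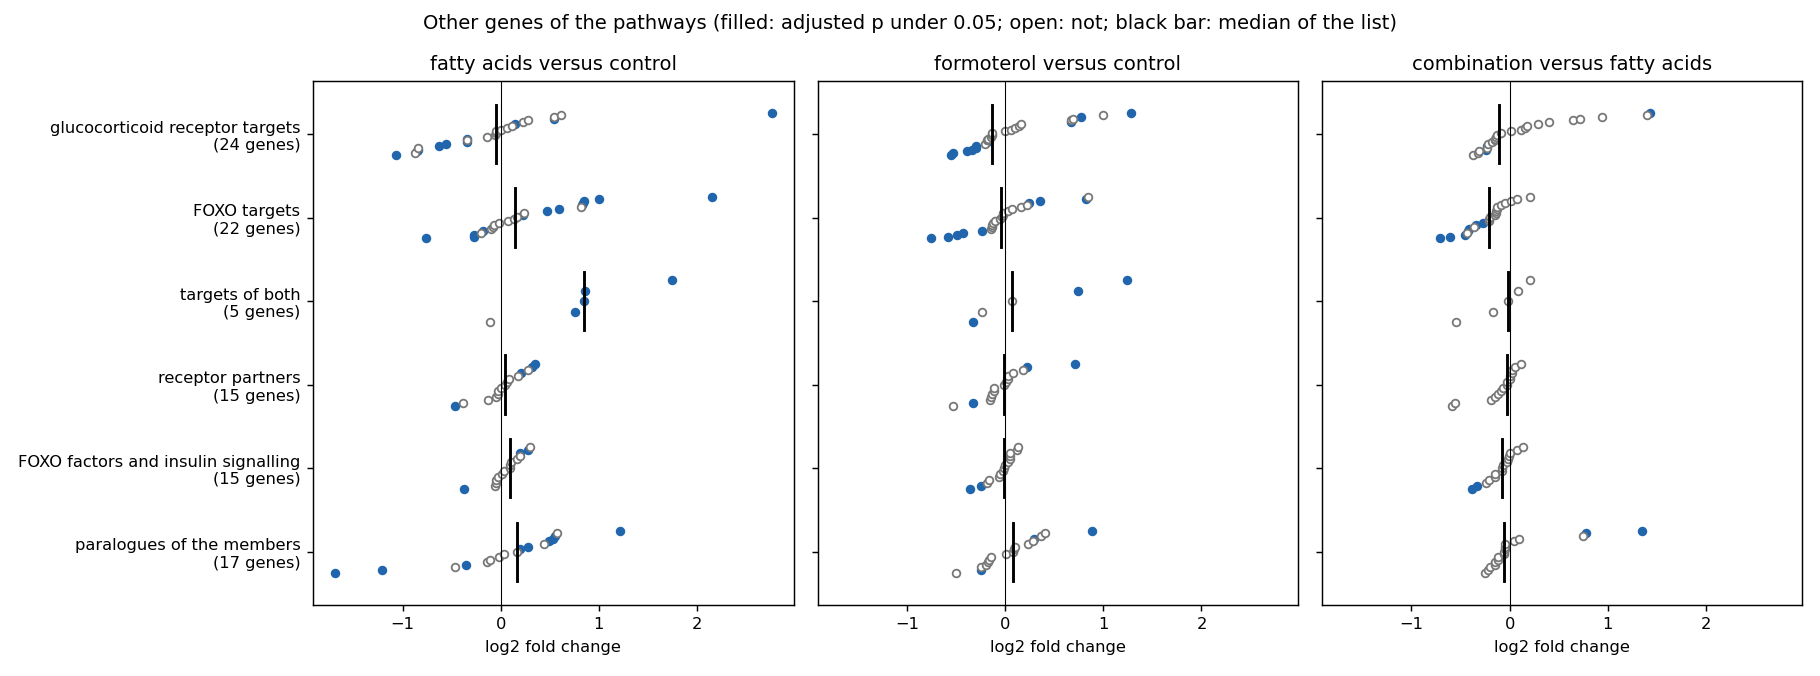
Log2 fold changes of the tested genes of the 6 pathway lists in 3 comparisons; filled points have an edgeR adjusted p under 0.05, open points do not, and black bars are list medians. FOXO targets lie to both sides with a median of 0.15 with fatty acids. They have 7 called lower and 0 higher when formoterol was added to fatty acids, where 2.8% of all genes tested were called.

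Of 17 paralogues of the 10 genes, fatty acids had 6 called higher and 3 lower than control, where 16.5% of all genes were called. KLF11 rose by 1.22 ± 0.07 (edgeR adjusted p = 1.47e-10) and KLF10 by 0.53 ± 0.06 (edgeR adjusted p = 1.27e-06), where KLF9 and KLF15 were lower, while KLF13 fell by 0.35 ± 0.06 (edgeR adjusted p = 0.000183). KLF10 and KLF11 are Krüppel-like factors known as early genes of TGF-beta signalling. Of the phosphatases related to DUSP1, DUSP4 fell by 1.69 ± 0.21 (edgeR adjusted p = 5.73e-06) and DUSP2 by 1.21 ± 0.32 (edgeR adjusted p = 0.0128), as DUSP1 was lower. DUSP4 had 2.53 ± 0.57 CPM with fatty acids and 8.15 ± 0.54 CPM in control, and DUSP2 had 0.79 ± 0.21 CPM with fatty acids and 1.84 ± 0.65 CPM in control (SD, n = 4 each). DUSP6 went the other way, with a rise of 0.55 ± 0.18 (edgeR adjusted p = 0.0345), and DUSP5 and DUSP10 were not called. The DUSP6 call was lost without control replicate 1, 3 or 4 or fatty acid replicate 2, 3 or 4 (0.46 to 0.59) and with total counts (0.53). KLF13 and DUSP6 are named after their values were seen. Formoterol added to fatty acids had 2 paralogues called higher and 0 lower, DUSP2 by 1.35 ± 0.32 (edgeR adjusted p = 0.0224) and DUSP4 by 0.78 ± 0.21 (edgeR adjusted p = 0.0445), the direction of DUSP1. The share of all genes called there was 2.8%. With formoterol 2 of the paralogues were called higher and 1 lower than control, where 10.3% of all genes were called. TSC22D1 rose by 0.29 ± 0.06 (edgeR adjusted p = 0.00318; not called with total counts, 0.16), where TSC22D3 was lower, and SGK2 rose by 0.89 ± 0.18 (edgeR adjusted p = 0.00339). DUSP4 lost its call for formoterol added to fatty acids in 11 of the 16 fits that left out 1 library. These were the fits without any control library, formoterol replicate 1 or 4, fatty acid replicate 1, 3 or 4, or combination replicate 1 or 2 (0.63 to 0.78). DUSP2 lost it without fatty acid replicate 1 or 3 or combination replicate 2 (1.06 to 1.34). With only the 2 groups compared neither DUSP4 (0.79) nor DUSP2 (1.36) was called, and DUSP4 was not called with total counts (0.82). DUSP2 also lost its fatty acid call without control replicate 3 (−1.001). The paralogue count with fatty acids was 5 without control replicate 3, and with formoterol 5 without combination replicate 2.

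For each of the 9 genes called in some comparison, the 2 protein-coding genes with the most similar pattern were taken from 11555 with at least 2 CPM on average, by the root mean square difference of log2 CPM over the 16 libraries after centring each gene. CDKN2B, an inhibitor of cell cycle kinases, was nearest to TSC22D3 with a difference of 0.12 log2 units, at 31.6 CPM in the combination, 37.2 CPM with fatty acids, 35.6 CPM with formoterol and 50.2 CPM in control. GPRC5C and CISH were nearest to DUSP1, both at 0.09. CISH, a feedback inhibitor of cytokine signalling, had 50.6 CPM in the combination, 37.8 CPM with fatty acids, 57.7 CPM with formoterol and 58.5 CPM in control. NEDD9, a scaffold of focal adhesions, was nearest to DEPP1 at 0.19, with 67.2 CPM in the combination, 94.1 CPM with fatty acids, 38.7 CPM with formoterol and 57.6 CPM in control, followed by PIK3IP1, an inhibitor of phosphoinositide 3-kinase, at 0.21. SCNN1A, a subunit of the epithelial sodium channel, was nearest to KLF15 at 0.08, with 262 CPM in the combination, 277 CPM with fatty acids, 365 CPM with formoterol and 441 CPM in control. The nearest to RIPOR2 were TBC1D2B at 0.08 and ACACB, the mitochondrial acetyl-CoA carboxylase, at 0.10, the second with 184 CPM in the combination, 218 CPM with fatty acids, 159 CPM with formoterol and 246 CPM in control. PCOLCE2 (0.13 from TSC22D3), GRB10 and RBFOX2 (0.05 from FKBP5), LAMB1 and MLLT6 (0.11 from ZBTB16), CYP2U1 and VPS41 (0.10 and 0.11 from KLF9), DMKN (0.09 from KLF15), and BACE2 and PLOD3 (0.07 from SGK1) complete the list. The genes differ in how much they vary over the libraries, so these differences are not comparable between them. After centring, the root mean square of the gene itself was 0.11 for FKBP5, 0.17 for SGK1, 0.23 for ZBTB16 and 0.62 for DEPP1. These are descriptions of likeness within the same libraries and carry no test.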

How the data were processed

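Differentiated HepaRG cells were profiled by poly-A RNA-seq in 16 libraries, 4 per group. The deposited table holds whole-number read counts per gene. A mouse build, mm39, stands beside HISAT2 2.0.5 and DESeq2 in the submitters' processing notes; since the names and coordinates of the 58735 genes are those of human GENCODE release 29 (GRCh38), the counts were taken as human. The sources used here name no counting program, strand setting or filter.

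A filter on low counts (filterByExpr) kept 18121 genes, which were scaled with TMM factors and fitted with edgeR 4.0.16 quasi-likelihood tests (4 group means, 12 residual degrees of freedom, Benjamini-Hochberg adjustment over all genes tested at 0.05) in R 4.3.3. The 5 pairwise comparisons and the interaction were tested. Depth was 32471299 to 65673126 counts per library. The 10 genes and all lists were chosen with earlier results of these data known. The other named genes are FOXO1, FOXO3, NR3C2, PER1, TAT, PCK1, G6PC, IGFBP1 and IRS2 always, up to 2 called genes with the smallest p per list in the comparisons of either treatment with control and of the combination with fatty acids, and the 2 genes most like each called member; CDKN1C, FAM107A, TRIM63, FOXO6 and RIPOR3 did not pass the filter. RASSF4 was added for its overlap with DEPP1, and DUSP6 and KLF13 as called paralogues. Of the genes named by this rule, 1 is not reported here. As alternatives, TMM was replaced by total counts or DESeq2 size factors, the filter by none or by 1 CPM in at least 4 libraries, and edgeR by DESeq2 1.42.0; other fits had replicate number as a block, only the groups compared, or 1 library fewer. The fit was tested on simulated data. No libraries of 1 group agreed within sampling noise (24 pairs, chi-square per degree of freedom 7.02 to 122). Promoter windows are RefSeq's on GRCh38.p14. Tables and figures used Python 3.11.15 with pandas 2.3.3, numpy 2.4.6 and matplotlib 3.10.9. Sequencing reads were not used here.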

Additional observations from a re-analysis of the deposited data

Results flagged for a closer look

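The effect of formoterol differed with and without fatty acids for 3 of the 10 genes, by a called interaction in the edgeR fit. Of all genes tested, 5.5% were called for the interaction. With scaling by total counts, 7 of the 10 genes were called for it. RIPOR2 had a difference of 0.63 log2 units, with a change by formoterol of −0.12 when fatty acids were present and −0.75 when they were not. TSC22D3 had a difference of 0.38, with −0.34 and −0.71, and DUSP1 a difference of 0.39, with 0.36 and −0.03. As the genes were chosen with these data known, the values are descriptions.

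FKBP5 had 1 control library, replicate 3, at 2475 CPM, far above the other 3 control libraries, which lay between 2310 and 2336 CPM. Its gap to the nearest library was 0.841 of the group's range, above Dixon's 95% critical value for 4 values. It was the 1 library so marked in 40 groups of 4 looked at, and chance marks about 1 group in 20. Without it, the difference of FKBP5 with fatty acids was −0.13 and was no longer called.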

How the results depend on the processing

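Of the alternatives run, other settings moved some counts by over 1.5 times. For the combination against fatty acids, all genes called were 507 by the edgeR fit, 880 with no filter, 795 with DESeq2 and 275 with only the 2 groups compared; the interaction had 997 and, with no filter, 1523. Of the 10 genes, 4 in place of 7 were called in the combination against control with only the 2 groups compared, and 7 in place of 3 in the interaction with total counts. With total counts, formoterol against control had 6 receptor partners, 4 FOXO and insulin signalling genes and 6 paralogues called in place of 3, 2 and 3, and 5 paralogues with the CPM filter. In the combination against fatty acids, the receptor targets called were 7 with no filter and 1 with only the 2 groups, in place of 3; the shared targets 1 with no filter, in place of 0; the receptor partners 2 with no filter, 2 with DESeq2 and 1 with the replicate block, in place of 0; and the paralogues 1 with total counts, 4 with DESeq2 and 0 with only the 2 groups, in place of 2. Total counts shifted the median of all genes by −0.13 for formoterol against control and 0.13 for the combination against formoterol, and moved the share of higher calls to 20.2% and 81.0%, against 55.7% and 51.4% with TMM. Under it, values near 0 changed sign: for the combination against formoterol TSC22D3 (0.0056), SGK1 (0.068) and NR3C1 (0.063), for the interaction KLF9 (0.076) and NR3C1 (0.11), and NR3C1 with formoterol (−0.11) and NR3C1 (0.0043) and IRS2 (0.014) in the combination against fatty acids.

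Leaving out 1 library at a time gave 1002 to 2588 genes called for formoterol against control (lowest without control replicate 3, and 1118 without formoterol replicate 4), 302 to 590 for the combination against fatty acids (lowest without fatty acid replicate 3) and 444 to 1325 for the interaction (444 without control replicate 3, 585 without formoterol replicate 4, 604 without fatty acid replicate 1, 640 without control replicate 4 and 653 without fatty acid replicate 3). With fatty acids against control, receptor targets called were 5 to 14, receptor partners 2 to 5, FOXO and insulin signalling genes 2 to 5 and paralogues 5 to 11. With formoterol against control, FOXO targets were 5 to 10, receptor partners 1 to 4, FOXO and insulin signalling genes 1 to 3 and paralogues 2 to 5. In the combination against fatty acids, receptor targets were 3 to 5, receptor partners 0 to 1 (1 without formoterol replicate 2 or combination replicate 3) and paralogues 0 to 2 (fewer without the libraries named for DUSP2 and DUSP4). Values that crossed 0 were uncalled: DUSP1 with formoterol (−0.081 to 0.014), ZBTB16 with fatty acids (−0.078 to 0.023), NR3C1 with fatty acids (−0.082 to 0.0091), with formoterol (−0.012 to 0.061), in the combination against fatty acids (−0.050 to 0.030) and in the interaction (−0.082 to 0.0087), and NR3C2 (−0.070 to 0.16) and IRS2 (−0.13 to 0.041) in the combination against fatty acids. The causes were not tested.

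No pairing of the samples by replicate number was seen: over 24 pairs of libraries with the same number the correlation of deviations from group means was −0.11 to 0.08, with 0 above 0.1. Such correlations cannot show that the samples were unpaired. With the replicate block, 3108 genes were called for fatty acids, 1967 for formoterol and 537 for the combination against fatty acids, and of the 10 genes 7, 7 and 4; the SGK1 call with fatty acids was lost (−0.19). The 10 genes had at least 636 counts in a library. Some other named genes were far lower, such as DUSP2, with 0.79 CPM on average with fatty acids, and had larger standard errors (0.32 for DUSP2 and for TAT with fatty acids against control).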
